A study of Rattus norvegicus with 12 samples.

Results

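The miR-23, miR-27 and miR-24 guide strands were examined in soleus muscle of adult male rat offspring. The members were the entries of a rat miRNA microarray named rno-miR-23a, rno-miR-27a, rno-miR-23b, rno-miR-27b and rno-miR-24 (miR-23a and so on below), without the opposite (star) strands of the same hairpins, and they made up 5 of the 677 rat miRNAs in the files. The rats were Sprague-Dawley males of 1 year of age, 6 born to control dams and 6 born to dams given a high fat diet, and the labels name no other treatment in either group. Per the methods the dams ate their diet from before mating until the end of lactation, and all offspring were weaned onto standard chow, so the groups differ in the diet of the mother. Total RNA of 1 soleus per rat, 100 ng, was labelled with Cy3 and hybridised to 1-colour Agilent arrays, 1 array per rat, on 2 slides with 3 rats of each diet on each. The labels do not say which rats shared a dam, so the p-values and intervals below treat each rat as independent. If rats of a group shared a dam, these p-values may be too small and the intervals too narrow.

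A miRNA is a short RNA cut from a hairpin precursor. One strand, the guide, is loaded into an Argonaute protein and pairs with target mRNAs mainly through its seed, the bases from position 2 to position 8. The miR-23, miR-27 and miR-24 hairpins lie side by side in paralogous clusters that are transcribed as units. The guides are known from skeletal muscle and from vessels: miR-23a lowers the muscle ubiquitin ligases atrogin-1 and MuRF1, miR-27 acts on Pax3 and myostatin, miR-24 rises as myoblasts differentiate, and the clusters are strongly expressed in endothelium. The comparison by dam diet asks whether muscle miRNAs differ in adult offspring that the mother's diet had made insulin resistant.

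The mature sequences show why the members are hard to tell apart and what separates them. They are printed 5′ to 3′ from RefSeq (GRCr8), where all 5 names matched, with the seed in capitals, followed by the opposite strands of both miR-24 hairpins, which do tell the clusters apart.
miR-23a: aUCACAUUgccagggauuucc
miR-23b: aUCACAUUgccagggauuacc
miR-27a: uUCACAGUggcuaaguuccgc
miR-27b: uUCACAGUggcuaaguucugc
miR-24: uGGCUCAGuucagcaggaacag
miR-24-2*: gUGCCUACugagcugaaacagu
miR-24-1*: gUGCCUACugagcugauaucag
miR-23a and miR-23b share every base but 1, U19A, with positions counted from 1 at the 5′ end of the a form. miR-27a and miR-27b likewise differ only by C19U. The miR-23 and miR-27 seeds have the same base at 6 of 7 positions, and in the table of 693 mature rat miRNAs each of these seeds belongs to its a and b form alone. The miR-24 guide is encoded at 2 places with the same sequence, so its signal adds up both clusters. Its opposite strands differ at 5 positions, A17U, C19U, A20C, G21A and U22G from miR-24-2* to miR-24-1*. The probe sequences were not used here, and how far a probe for an a form also binds the b form was not tested.

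On GRCr8 the a cluster lies on the minus strand of chromosome 19. Mir23a spans bases 40859769 to 40859843, Mir27a 40859603 to 40859689 and Mir24-2 40859455 to 40859562, with gaps of 79 and 40 bases, so that the whole cluster covers 389 bases. The b cluster lies on the minus strand of chromosome 17. Mir23b spans bases 1819386 to 1819482, Mir27b 1819147 to 1819243 and Mir24-1 1818669 to 1818736. Its gaps are wider, 142 and 410 bases, and it covers 814 bases. The array files name no genome build, and these positions come from RefSeq alone.

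All 5 guides were detected on all 12 arrays, and the scanner software gave each of the 60 values an error of 7.14% to 7.88% of the signal. Signals are total intensities per miRNA. Each array was divided by its 75th percentile over the 162 miRNAs detected on all 12 arrays and brought back to signal units by 1 common factor, and the result is called the scaled signal. Signals of different miRNAs depend on their probes and were not ranked against each other. Together the 5 guides made up 9.09% to 12.2% of the summed signal of an array in 11 rats and 4.73% in the high fat rat H3. Of the 6 opposite strands on the array, miR-24-2* of the a cluster was detected in all 12 rats. miR-23a*, miR-27a*, miR-23b*, miR-27b* and miR-24-1* were detected on 0 arrays.

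No guide passed the test between the dam diets. Each of the 5 had a lower mean log2 signal in the high fat group, with differences (high fat minus control) from -0.34 to -0.26. Without rat H3, and with the other arrays scaled again, they lay between -0.09 and 0.02. In limma, 0% of the 193 miRNAs detected on at least 6 arrays had an adjusted p under 0.05, and 1.04% had an unadjusted p under 0.05, which none of the members had. Over all 193 miRNAs the median log2 difference was -0.17, and 154 of them had a lower mean in the high fat group.

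miR-23a, of the a cluster, had scaled signals of 11928 (lowest), 15772 (median) and 17802 (highest) in the control group and of 6332, 14783 and 15916 in the high fat group. The means were 15491 ± 2059 (SD, n = 6) and 13369 ± 3622 (SD, n = 6). The groups overlapped, with 5 of 6 high fat rats inside the control range and only H3 below it. The log2 difference, high fat minus control, was -0.26 (standard error 0.22, 95% interval -0.74 to 0.21, limma adjusted p = 0.685 after Benjamini-Hochberg adjustment).

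miR-27a, its neighbour, ran from 10555 over a median of 11823 to 19162 in control offspring and from 4429 over 12084 to 13547 in the high fat group. Its means were 13542 ± 3680 (SD, n = 6) and 11045 ± 3352 (SD, n = 6). The high fat median was the higher one although the high fat mean was the lower one: control rats C60 (19162) and C73 (17180) lay above every other rat, H3 lay below every other rat, and the remaining 5 high fat rats fell inside the control range. In the deposited signals, before scaling, C60 (12230) and C73 (13189) lay inside the range of the other rats, whose highest was A37 (17982). The log2 difference was -0.34 (standard error 0.27, 95% interval -0.93 to 0.25, limma adjusted p = 0.685).

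miR-23b, of the b cluster, ran from 7043 over a median of 8353 to 8890 in control offspring and from 4075 over 6858 to 9040 in the high fat group. The means were 8066 ± 801 (SD, n = 6) and 6708 ± 1723 (SD, n = 6). Here 4 high fat rats lay below the control range, 1 inside it and 1, H1, above it. The log2 difference was -0.30 (standard error 0.18, 95% interval -0.69 to 0.087, limma adjusted p = 0.685).

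miR-27b ran from 5589 over 6166 to 6910 in control offspring and from 2944 over 5501 to 6603 in the high fat group, with means of 6224 ± 557 (SD, n = 6) and 5262 ± 1247 (SD, n = 6). Of the high fat rats, 3 lay below the control range and 3 inside it. The log2 difference was -0.28 (standard error 0.18, 95% interval -0.67 to 0.11, limma adjusted p = 0.685).

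miR-24, the product of both clusters, ran from 8002 over 9729 to 11693 in control offspring and from 3866 over 9001 to 10177 in the high fat group. Its means were 9748 ± 1285 (SD, n = 6) and 8151 ± 2231 (SD, n = 6), and 2 high fat rats lay below the control range and 4 inside it. The log2 difference was -0.31 (standard error 0.22, 95% interval -0.78 to 0.16, limma adjusted p = 0.685). The exact two-sided permutation test over every assignment of the rats to the diets gave p-values from 0.0887 (miR-27b) to 0.294 (miR-27a) for the 5 guides, and from 0.105 to 0.33 when rats were exchanged within slides alone.

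**Figure D1:**
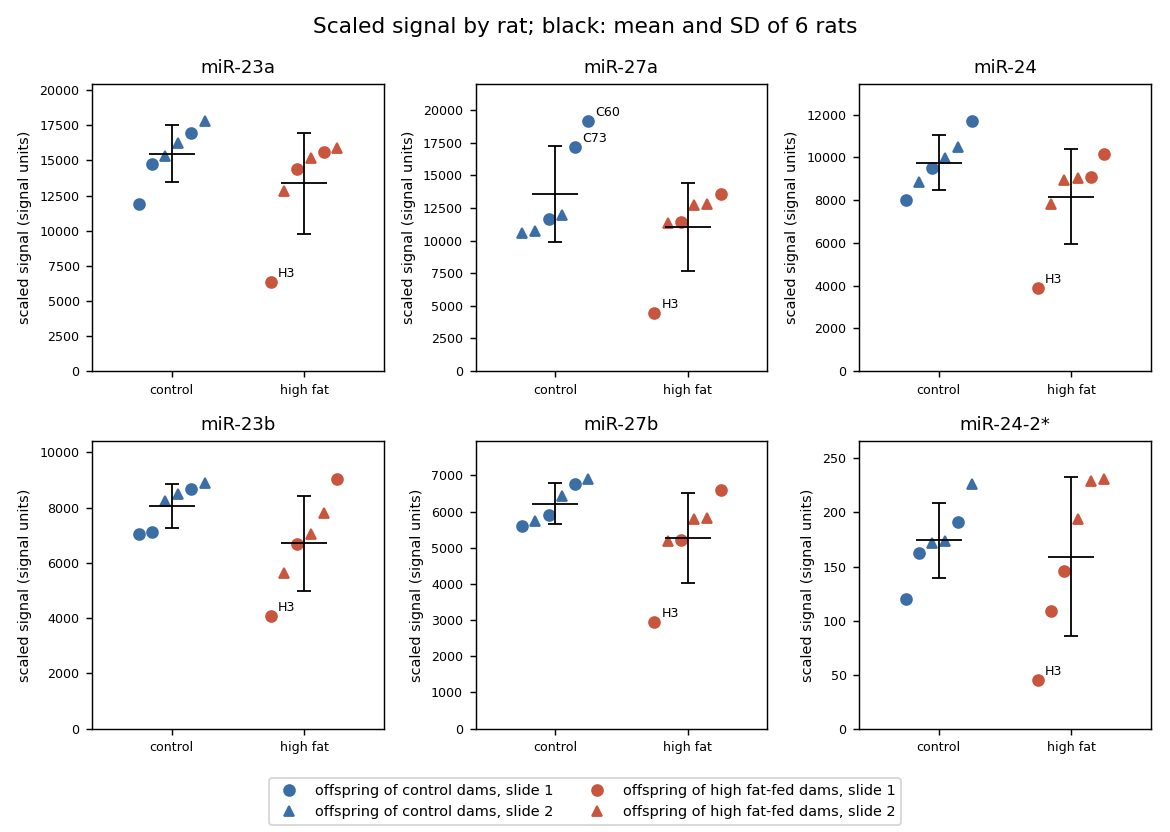
Scaled signal (signal units, y axis from 0) of the 5 guides and of miR-24-2* in each rat, by dam diet, with blue for offspring of control dams, red for offspring of high fat-fed dams, circles for slide 1, triangles for slide 2, and black lines for the mean and SD of 6 rats; points within a group are spread sideways by rank. Rat H3 is the lowest high fat rat in all 6 panels, and C60 and C73 stand above the other rats for miR-27a.

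Rat H3 moved the mean differences more than any other rat that was left out. Its signal was 36.9% of the median of the other 11 rats for miR-27a, 41.3% for miR-23a, 42.6% for miR-24, 50.5% for miR-27b and 52.3% for miR-23b. Without this rat, and with the other 11 arrays scaled again, the log2 difference was 0.02 for miR-23a, -0.01 for miR-27a, -0.09 for miR-23b, -0.04 for miR-27b and -0.03 for miR-24. The exact two-sided permutation p-values then ran from 0.448 to 0.961 over 462 assignments. Since the arrays were scaled again, these values join the loss of H3 with a change of scaling. Found in the same way, the differences lay between -0.18 and -0.13 without control rat C60. They lay between -0.28 and -0.13 without control rat H10. Over these 11 rats, in the scaling of all 12 arrays, the spread was small for 4 guides. The coefficient of variation was 9.95% for miR-27b, 11.2% for miR-23a, 11.9% for miR-24 and 14.0% for miR-23b. It was larger for miR-27a, at 21.1%. In the deposited signals of the same rats, without scaling between arrays, it was 17.6% for miR-27a. There it was 21.0% for miR-23a, 20.1% for miR-23b, 18.1% for miR-27b and 15.8% for miR-24. The larger spread of miR-27a was thus seen in the scaled signals and not in the deposited ones. The scaling also moved the differences. Without any scaling between arrays miR-23a (0.05), miR-23b (0.0057) and miR-27b (0.03) turned positive and miR-27a (-0.03) and miR-24 (-0.0016) did not, where the median of all 193 miRNAs was 0.14. All 5 stayed negative under quantile normalization, between -0.17 (miR-27a) and -0.07 (miR-27b), where that median was -0.00086, and with the 75th percentile taken over all miRNAs, between -0.17 (miR-27a) and -0.09 (miR-23a), where it was 0.0041.

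**Figure D2:**
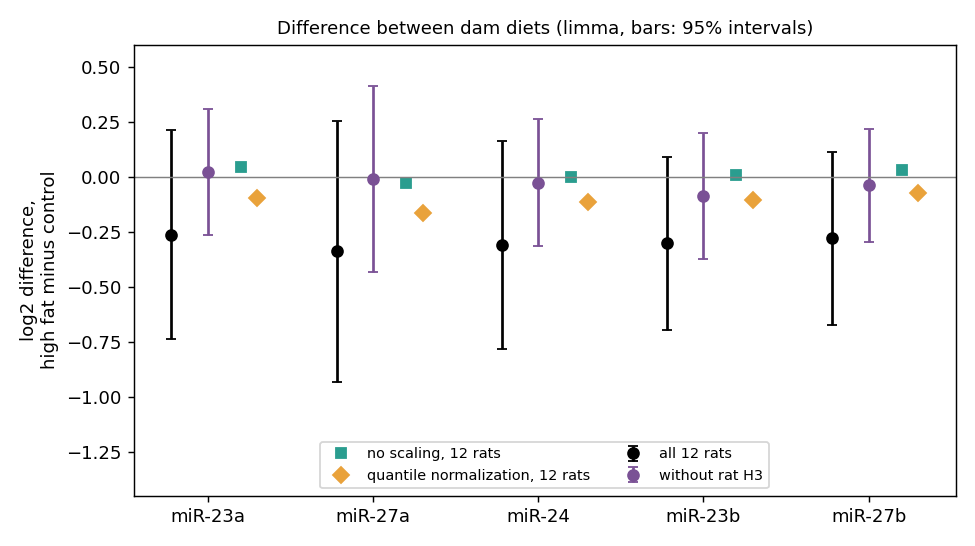
Log2 difference, high fat minus control, of each guide: black points with 95% intervals from limma on all 12 rats, purple points and intervals without rat H3, green squares without scaling between arrays and orange diamonds under quantile normalization. All black intervals hold 0, and the purple points lie between -0.09 and 0.02.

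H3 also differed in miRNAs of other cells and of the fibres. miR-126, the defining miRNA of endothelium, had a scaled signal of 2004 in H3 and of 3951 to 5427 in the other 11 rats. miR-143, of smooth muscle and pericytes, was 2813 in H3 and 4770 to 6492 in the others. Among muscle fibre miRNAs, miR-499, encoded in a slow myosin gene, was 366 in H3 against 4553 to 9137, and miR-206 was 9354 against 30841 to 60699, while miR-1 was highest in H3, at 136123 against 51591 to 106415. miR-133a (2976 in H3 against 1365 to 3416) and miR-133b (96266 against 58477 to 113448) lay inside the range of the other rats. The 5 listed muscle fibre miRNAs on the array were detected in all 12 rats and summed to between 165345 and 289710 in control offspring and between 148101 and 261037 in the high fat group, with 245085 in H3. All samples are labelled soleus, a slow muscle. The low miR-499 and miR-206 of H3 set this sample apart from the other 11 under that label, and every value over 12 rats includes it.

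The whole marker lists moved as follows. The summed signal of both endothelial miRNAs ran from 4665 to 5895 in control rats and from 2121 (H3) to 5685 in high fat rats, the next lowest being 4345. Both smooth muscle and pericyte miRNAs summed to between 5433 and 6641 in control rats and between 2859 (H3) and 6479 in high fat rats. The 2 red cell miRNAs of the array ran from 643 to 2636 and from 458 to 3295, with the highest sum in H3. The 4 leukocyte miRNAs ran from 1411 to 1897 and from 1219 to 1905, and the 3 fibroblast miRNAs from 2755 to 7094 and from 2342 to 7391. The 7 epithelial and liver miRNAs summed to between 30.7 and 507 in control rats and between 40.9 and 363 in high fat rats (57.2 in H3). Of these, miR-192 was detected in 12 rats, miR-122 in 10, miR-194 in 8, miR-200a and miR-200b in 1, H3, and miR-200c and miR-141 in 0. In limma 0 miRNAs of any list had an adjusted p under 0.05. In a whole muscle, fewer cells of a type and less RNA per cell cannot be told apart. The part of these cells and of the condition of the H3 sample in the guides' values was not tested.

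The a and b forms were compared within each array as a ratio of signals, which no scaling by a single factor changes. The b over a ratio of miR-23 varied little between rats, and no difference by dam diet was detectable. On the log2 scale it ran from -1.19 (lowest) over -0.96 (median) to -0.64 (highest), with a mean of -0.94 ± 0.11 (SD, n = 6) for the control group against -0.98 ± 0.23 (SD, n = 6) for the high fat group. The ratio was highest in H3, and the groups overlapped. The difference was -0.04 (exact two-sided permutation test, p = 0.712, Benjamini-Hochberg p = 0.745 over both ratios, 95% interval from the same test -0.26 to 0.19).

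The b over a ratio of miR-27 varied more, from -1.54 over -1.05 to -0.59. Its mean was -1.09 ± 0.35 (SD, n = 6) for the control group against -1.03 ± 0.24 (SD, n = 6) for the high fat group, with overlapping groups. The difference was 0.06 (exact two-sided permutation test, p = 0.745, Benjamini-Hochberg p = 0.745, 95% interval -0.32 to 0.44). A diet effect on the balance of the clusters of a size inside these intervals remains compatible with the 12 rats. The ratio says how the forms vary and not which is more abundant.

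miR-23a, miR-23b, miR-27b and miR-24 kept close proportions from rat to rat, and miR-27a varied more against each of them. The SD over the 12 rats of the log2 ratio was 0.088 for miR-24 over miR-23a, 0.11 for miR-24 over miR-27b, 0.11 for miR-27b over miR-23b and 0.12 for miR-27b over miR-23a. Of all 13041 pairs of miRNAs detected on all arrays, 0.031%, 0.12%, 0.17% and 0.27% had a lower SD, and the median over all pairs was 0.46. These pairs also hold dim miRNAs, such as miR-192 (scaled signal 13.6 in H3), and were not matched to the guides by signal. miR-24 over miR-23b (0.17) and miR-23b over miR-23a (0.17) were also below the 5th percentile of all pairs, 0.22. All of these pairs leave out miR-27a. Each ratio with miR-27a was wider, 0.24 with miR-24, 0.29 with miR-27b, 0.29 with miR-23a and 0.37 with miR-23b, and 7.48% to 31.8% of all pairs were tighter. Among the tight pairs were cluster mates (miR-23b and miR-27b) and guides of different clusters (miR-23a and miR-27b). Among the loose pairs were the cluster mates miR-23a and miR-27a and the paralogues miR-27a and miR-27b. miR-24 comes from both clusters, so its pairs belong to neither kind alone.

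**Figure D3:**
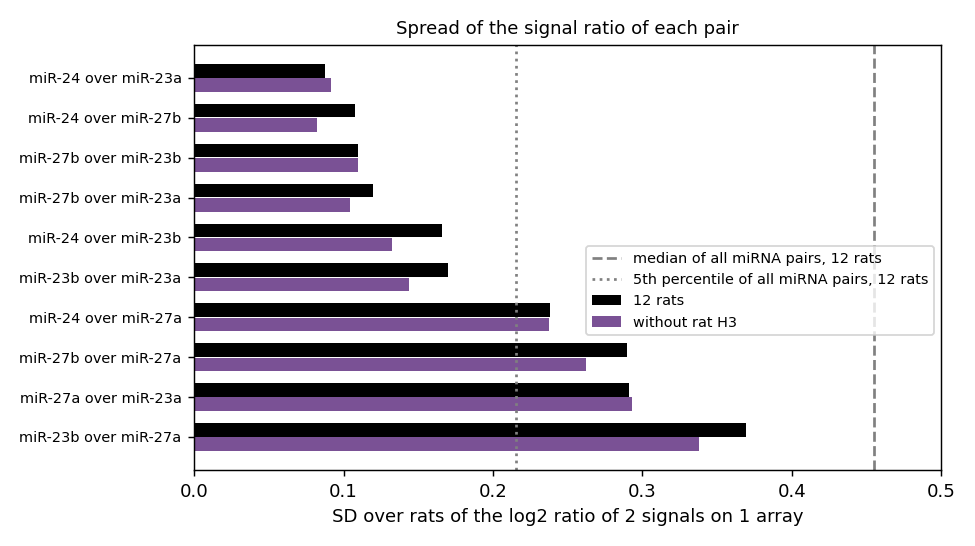
SD over rats of the within-array log2 ratio for the 10 pairs of guides, black bars for 12 rats and purple bars without rat H3, with the median (dashed line) and the 5th percentile (dotted line) of all 13041 miRNA pairs over 12 rats. The 6 pairs without miR-27a lie under the dotted line and the 4 pairs with miR-27a lie above it.

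The same split appeared in the correlations of log2 scaled signals over the rats. Over all 12 rats every pair of guides rose and fell together, with Pearson's r from 0.696 (miR-27a with miR-23b) to 0.979 (miR-27b with miR-24), and all 10 pairs had a Benjamini-Hochberg p under 0.05 in a permutation test with 100000 permutations. Across all 13041 pairs of miRNAs the median r was 0.22 and the 95th percentile 0.804. By Spearman's rho 6 of the 10 pairs had an adjusted p under 0.05, and without H3 6 pairs did by Pearson's r. These were the 6 pairs that leave out miR-27a. Without H3 the 95th percentile of r over all pairs of miRNAs was 0.805. Of the 6, miR-23a with miR-23b (0.736), miR-23b with miR-24 (0.779) and miR-23a with miR-27b (0.785) then lay below it. The rest of the 6 lay above it. Under quantile normalization the split was another one: 7 pairs passed, miR-27a with miR-27b had the highest r of all (0.883, permutation p = 0.0019), miR-27a with miR-24 gave 0.780, and miR-23a with miR-27b (0.657, permutation p = 0.0513), miR-23a with miR-27a (0.423) and miR-27a with miR-23b (0.301) did not pass.

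miR-23a with miR-24 gave r = 0.976 (permutation p = 4e-05, Benjamini-Hochberg p = 0.00013) and rho = 0.839 (permutation p = 0.0013). Their r was 0.853 without H3 and 0.837 without H3 and A110, the rats farthest from the median of miR-23a. miR-27b with miR-24 gave r = 0.979 (permutation p = 2e-05, Benjamini-Hochberg p = 1e-04) and rho = 0.923 (permutation p = 9e-05), with r = 0.875 without H3 and 0.870 without H3 and A75. Both relations held within each slide, with r = 0.997 and 0.961 for miR-23a with miR-24 and 0.981 and 0.991 for miR-27b with miR-24 on slides 1 and 2. On slide 1 without H3 r was 0.968 and 0.817.

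The cluster mates miR-23b and miR-27b gave r = 0.944 (permutation p = 2e-05, Benjamini-Hochberg p = 1e-04) and rho = 0.867 (permutation p = 0.00049), and r was 0.878 without H3 and 0.867 without H3 and A37. On slides 1 and 2 their r was 0.985 and 0.852. The paralogues miR-23a and miR-23b gave r = 0.906 (permutation p = 0.00076, Benjamini-Hochberg p = 0.0013) and rho = 0.776 (permutation p = 0.0042), with 0.736 without H3, 0.858 without H3 and A110, and 0.945 and 0.888 on slides 1 and 2. The remaining pairs without miR-27a cross the clusters. miR-23a with miR-27b gave r = 0.963 (permutation p = 1e-04, Benjamini-Hochberg p = 0.00024) and rho = 0.902 (permutation p = 0.00017), with 0.785 without H3, 0.879 without H3 and A110, and 0.970 and 0.940 on slides 1 and 2. miR-23b with miR-24 gave r = 0.916 (permutation p = 0.00012, Benjamini-Hochberg p = 0.00024) and rho = 0.769 (permutation p = 0.0047), with 0.779 without H3, 0.683 without H3 and A37, and 0.958 and 0.889 on slides 1 and 2.

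miR-27a gave lower rank correlations and lower r without H3. With its cluster mate miR-23a it gave r = 0.826 (permutation p = 0.026, Benjamini-Hochberg p = 0.028), but rho = 0.35 (permutation p = 0.265), r = 0.191 without H3 (0.380 with the other 11 arrays scaled again) and 0.113 without H3 and A110. On slide 1 r was 0.961, and 0.718 without H3, and on slide 2 it was -0.283. With its paralogue miR-27b it gave r = 0.854 (permutation p = 0.013, Benjamini-Hochberg p = 0.016) and rho = 0.538 (permutation p = 0.0754), and r was 0.344 without H3, 0.071 without H3 and C60, and 0.961 and -0.287 on slides 1 and 2. With miR-23b it gave r = 0.696 (permutation p = 0.0395, Benjamini-Hochberg p = 0.0395) and rho = 0.280 (permutation p = 0.379), with 0.052 without H3, -0.227 without H3 and C60, and 0.907 and -0.677 on slides 1 and 2. With miR-24 it gave r = 0.892 (permutation p = 0.0051, Benjamini-Hochberg p = 0.0073) and rho = 0.566 (permutation p = 0.0592), with 0.512 without H3, 0.123 without H3 and C60, and 0.969 and -0.352 on slides 1 and 2. The 4 values of r below 0 on slide 2 rest on 6 rats, with exact permutation p-values from 0.138 to 0.614, so their sign is not settled. With the other 11 arrays scaled again, its r without H3 was 0.539 with miR-27b, 0.646 with miR-24 (permutation p = 0.035) and 0.138 with miR-23b. On slide 1 without H3, r over 5 rats was 0.719, 0.787 and 0.458 with the same guides. The pairs that leave out miR-27a were lower there too. miR-23a gave 0.648 with miR-23b, 0.708 with miR-27b and 0.968 with miR-24. miR-23b gave 0.741 with miR-24 and 0.941 with miR-27b, and miR-27b gave 0.817 with miR-24. The pairs with and without miR-27a thus overlapped in r on slide 1 without H3. Without H3 none of the 4 relations of miR-27a passed after Benjamini-Hochberg adjustment under either scaling.

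**Figure D4:**
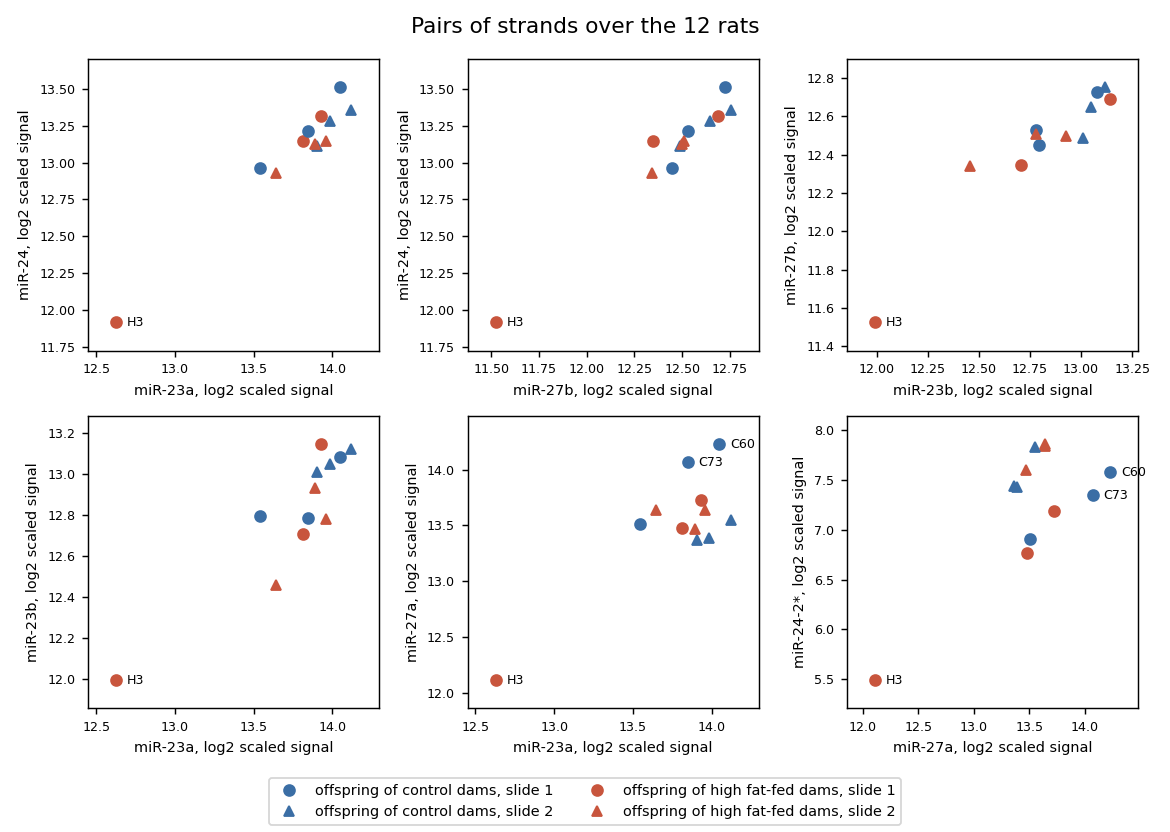
Log2 scaled signals of 5 pairs of guides and of miR-27a with miR-24-2* in the 12 rats, with blue for offspring of control dams, red for offspring of high fat-fed dams, circles for slide 1 and triangles for slide 2. H3 lies at the lower left of every panel, the pairs without miR-27a also rise together among the other 11 rats, and miR-27a follows miR-24-2* along 1 line per slide.

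The ratios of miR-27a to the other guides differed between dam diets in opposite directions on the 2 slides. On slide 1 the log2 ratio of miR-27a over miR-23a was 0.22 in C73, -0.03 in A110 and 0.18 in C60 (control), and -0.33 in C51, -0.52 in H3 and -0.20 in H1 (high fat). On slide 2 it was -0.60 in H10, -0.54 in A89 and -0.57 in A75 (control), and -0.42 in C25, -0.32 in H20 and -0.01 in A37 (high fat). The diets did not overlap on either slide, with the control rats above the high fat rats on slide 1 and below them on slide 2. The difference was -0.47 on slide 1 and 0.32 on slide 2, and the slides differed by 0.79 (exact two-sided permutation over the 400 exchanges of rats inside slides, p = 0.005, the smallest it can give, Benjamini-Hochberg p = 0.025 over 10 ratios).

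This test was chosen after the values were seen. The other ratios with miR-27a differed between slides by -0.72 for miR-24 over miR-27a, -0.78 for miR-27b over miR-27a and -1.04 for miR-23b over miR-27a, each with a Benjamini-Hochberg p of 0.025 in the same exact test, and the 6 ratios without miR-27a did not pass. In 2 of the 10 ratios, miR-27a over miR-23a and miR-24 over miR-27a, the diets were apart on both slides in opposite directions, where 3.06% of all 13041 ratios of miRNA pairs were. Taken over both slides together the diets overlapped in each of the 10 ratios, and 0.023% of all pairs had ratios without overlap. Without H3 the value for miR-27a over miR-23a was 0.71 (exact permutation p = 0.005 over 200 assignments, the smallest it can give, Benjamini-Hochberg p = 0.05), and 0 of the 10 ratios had an adjusted p under 0.05. At this smallest p, 1 ratio alone could not pass the adjustment over 10 ratios. The diets stayed apart on both slides for miR-27a over miR-23a without H3. For the signal of miR-27a itself, the log2 difference between diets was -0.83 on slide 1 and 0.15 on slide 2, and the interaction in limma was 0.98 (standard error 0.51, adjusted p = 0.535), where 0% of the 193 miRNAs passed. Before adjustment, 10.9% of the 193 miRNAs had an interaction p under 0.05 in limma, and miR-27a was not among them. These interactions are of single miRNAs and not of ratios. Whether the opposite diet differences of the ratios were particular to the guides was not tested. The share of all 13041 ratios that the exact test would call was not counted. The 75th percentile of the deposited signals ran from 864 to 1403 on slide 1 and from 1230 to 1911 on slide 2. The part of the slides in the opposite diet differences of miR-27a was not tested.

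The opposite strand miR-24-2* varied as miR-27a did once the slides were taken apart. Its hairpin is the next one downstream of Mir27a. Its scaled signal was low, 120 (lowest), 173 (median) and 226 (highest) in control offspring and 45.0, 170 and 231 in the high fat group, with H3 lowest and overlapping groups. The log2 difference between diets was -0.30 (standard error 0.36, limma adjusted p = 0.736), with -0.80 on slide 1 and 0.20 on slide 2. Its mean log2 signal was 0.79 higher on slide 2 than on slide 1, where miR-27a differed by -0.01. Both slide 1 means include H3, the lowest rat for both strands. Without H3 the scaled signal of miR-24-2* ran from 108 to 191 on slide 1 and from 172 to 231 on slide 2. That of miR-27a ran from 11423 to 19162 on slide 1 without H3 and from 10555 to 12781 on slide 2.

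Pooled over 12 rats, miR-24-2* and miR-27a gave r = 0.767 (permutation p = 0.031, rho = 0.329 with permutation p = 0.294), and 0.136 without H3. Within slide 1 r was 0.995, and 0.971 without H3, and within slide 2 it was 0.970. With each slide centred on its own mean, miR-24-2* was the miRNA most like miR-27a among the 161 other miRNAs detected on all arrays, and miR-27a the one most like miR-24-2*, by r = 0.989 with H3 and 0.948 without it. In the same centring miR-23a and miR-24 were each other's most like, by r = 0.993 and 0.963. miR-23a, also of the a cluster, gave 0.879 with H3 and 0.385 without it with miR-24-2*. With miR-27a it gave 0.895 and 0.414. The 95th percentile over all pairs was 0.843 with H3 and 0.839 without. The ratio of miR-27a over miR-24-2* did not show the opposite diet differences, with -0.03 on slide 1 and -0.05 on slide 2. The centring by slide was chosen after the values were seen, and these r are a description over 12 rats that share 2 slides.

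**Figure D5:**
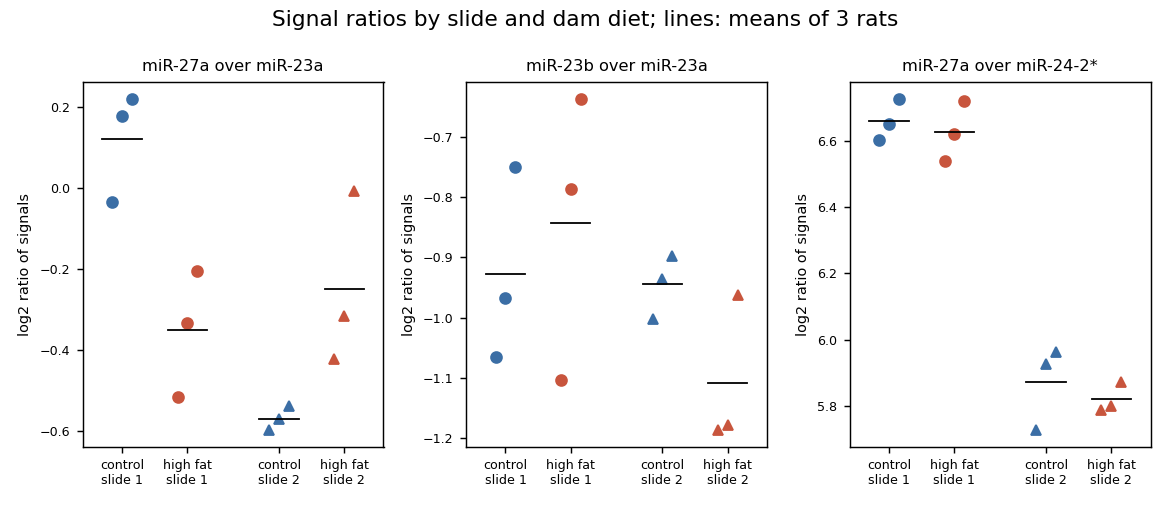
Within-array log2 ratios of miR-27a over miR-23a, miR-23b over miR-23a and miR-27a over miR-24-2* by slide and dam diet, each point 1 rat and each line the mean of 3 rats. The diets change places between the slides for miR-27a over miR-23a (-0.47 and 0.32), and for miR-27a over miR-24-2* they lie within -0.03 and -0.05 of each other while the slides stand apart.

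Apart from the guides, the miRNAs most like the guides were named by Pearson's r over the 12 rats among 157 others detected on all arrays. miR-126 led for miR-23a (r = 0.938, and 0.567 without H3), miR-324-3p for miR-27a (0.878, and 0.638), miR-185 for miR-23b (0.929, and 0.803), miR-143 for miR-27b (0.945, and 0.702) and miR-196b for miR-24 (0.954, and 0.677). The next were miR-499 and miR-143 for miR-23a, miR-196b and miR-339-3p for miR-27a, let-7a and miR-143 for miR-23b, miR-196b and miR-202* for miR-27b, and miR-206 and miR-126 for miR-24. These values fell without H3 for all 5 leading miRNAs, least for miR-23b.

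By the SD of the log2 ratio, the closest were miR-126 to miR-23a (0.14) and to miR-24 (0.15), let-7a to miR-23b (0.13), miR-143 to miR-27b (0.11) and miR-196b to miR-27a (0.26). miR-126 and miR-143 were each among the 3 closest for 3 of the 5 guides. The r of the endothelial miR-126 with miR-27a was 0.802 over 12 rats and -0.04 without H3. All of these values share the array and its scaling, and they are given as a description.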

How the data were processed

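Soleus RNA of 12 rats was measured on 1-colour Agilent miRNA arrays based on miRBase release 16. For each array the authors deposited the intensity of every miRNA (total gene signal) with an error and a detection flag, as extracted by the scanner software, with background subtracted and no scaling between arrays. The software version is not given in the sources used here. A value table for all arrays held 0 intensities that differed by more than 0.001 signal units. The study's human samples were not analysed here, and all 12 rats were used, although the paper's numbers of rats differ.

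The 22 control entries were left out. Scaled signals were floored at 5.17, the median over arrays of the lowest detected signal, and put on the log2 scale; a miRNA that was not detected is listed at 0.1. Groups came from the labels. limma 3.58.1 (R 4.3.3) gave each high fat minus control difference, and p-values of the 193 miRNAs that 6 or more arrays detected were adjusted by Benjamini-Hochberg. Exact two-sided permutation tests, and correlations with 100000 permutations (exact within slides), were run in Python 3.11.15 with scipy 1.17.1. The steps were tested on simulated data, drawn independently with the mean and spread of each miRNA. There limma recovered 14.5% of true log2 changes of 0.5 and 75.5% of changes of 1, at an adjusted p under 0.05. The number of arrays limits the precision.

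The named miRNAs were the 5 guides, the opposite strands of their hairpins, for each guide the 3 miRNAs of highest r and the 3 of lowest SD of the log2 ratio, and the marker lists. Members and lists were chosen with earlier results of these data known. Alternatives changed the scaling, the floor, the detection filter, the blocks (slide; slide and row; letter of the rat label), the test and the source table, and left out each rat. The diet-by-slide tests, the values centred by slide without H3 and the place of miR-24-2* were added after the data were seen.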

Additional observations from a re-analysis of the deposited data

Results flagged for a closer look

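In the high fat group, rat H3 lay apart from the other 5 rats for 4 of the 5 guides by Dixon's 95% criterion. Its scaled signal was 6332 for miR-23a, where the others ran from 12805 to 15916, and 4429 for miR-27a, where they ran from 11344 to 13547. For miR-27b it was 2944 against 5190 to 6603, and for miR-24 it was 3866 against 7793 to 10177. Chance sets a rat apart in about 1 in 20 groups, and since the guides vary together over the same rats, these values are 1 event, the position of H3, and not 4 independent ones. H3 also lay outside the range of the other rats for miR-126, miR-143, miR-206, miR-499 and miR-1, and inside it for miR-133a and miR-133b. The position of H3 is therefore not particular to the guides. The share of all miRNAs that set H3 apart by this criterion was not counted.

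The diet difference of the log2 ratio was not the same on the 2 slides for each ratio that involves miR-27a. The value on slide 2 minus that on slide 1 was 0.79 for miR-27a over miR-23a, -1.04 for miR-23b over miR-27a, -0.78 for miR-27b over miR-27a and -0.72 for miR-24 over miR-27a (exact two-sided permutation test within slides, Benjamini-Hochberg p = 0.025 for each over 10 ratios). Without H3 these were 0.71, -0.86, -0.61 and -0.66, with Benjamini-Hochberg p of 0.05, 0.075, 0.075 and 0.05 in the same exact test. The smallest p it can give without H3 is 0.005, so 1 ratio alone could not pass over 10 ratios. The test was chosen after the values were seen. All of these ratios hold miR-27a, so they are not independent results. The share of all 13041 ratios of miRNA pairs that the same test would call was not counted.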

How the results depend on the processing

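Under every alternative run, 0 miRNAs passed the adjusted threshold by dam diet, and no guide did. At an unadjusted p under 0.05 the count was 2, and from 1 to 15 with a rat left out, the highest without H1; it was 8 with slide as a block, 12 with array weights, 5 under quantile normalization and with slide and row as blocks, and 1 on miRNAs detected on all arrays or with trend and robust. The diet difference turned positive without scaling for miR-23a (0.046), miR-23b (0.0057), miR-27b (0.029) and miR-24-2* (0.012), and with array weights for miR-24-2* (0.10). Array weights brought the guides nearer to 0, to -0.04 for miR-23a, -0.17 for miR-27a, -0.20 for miR-23b, -0.15 for miR-27b and -0.14 for miR-24, and the 75th percentile over all miRNAs to -0.09, -0.17, -0.13, -0.11 and -0.14. With 1 rat left out it ran from -0.34 to 0.021 for miR-23a, -0.42 to -0.01 for miR-27a, -0.40 to -0.09 for miR-23b, -0.35 to -0.04 for miR-27b, -0.39 to -0.03 for miR-24 and -0.41 to 0.11 for miR-24-2*, each highest without H3. The ratio of miR-23b over miR-23a then ran from -0.11 to 0.0025 and turned positive without H20 (0.0007) or A37 (0.0025). That of miR-27b over miR-27a ran from -0.032 to 0.13 and turned negative without C73 (-0.032), C60 (-0.024) or H3 (-0.028). The cause was not tested for any of these.

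The number of guide pairs that varied together was 10, and 6 to 10 with 1 rat left out and the arrays scaled again: 6 without H3, 9 without C60 and 10 without each other rat. It was 6 without H3 with values centred by slide and 7 under quantile normalization, 2 of them with miR-27a (miR-27b, 0.883, and miR-24, 0.780). No paired analysis was possible because the labels give the rats no shared replicate numbers. With 6 rats a group, the printed intervals hold the differences that remain compatible with these data and are not limits of detection. Each value rests on 1 array per rat.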
